A study of Mus musculus with 12 samples.

Results

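Glucocorticoids are steroid hormones of the adrenal cortex that enter cells and bind the glucocorticoid receptor, a transcription factor held by chaperones until the hormone arrives. The loaded receptor binds short palindromic DNA elements and raises a set of genes that recurs in many tissues, among them brakes on the receptor itself, transcription factors and regulators of metabolism and of the cell cycle. In brain tissue such genes are commonly read as markers of hormone exposure, although most of them also answer to glucose, the clock, DNA damage or other stress signals. The 10 genes described here are Fkbp5, Tsc22d3, Zbtb16, Txnip, Fam107a, Sgk1, Per1, Klf9, Cdkn1a and the receptor gene Nr3c1, picked by symbol out of 23983 entries in each table. They were chosen on measured values: the group was assembled after Txnip, Fam107a and Zbtb16 had been seen changed in these data. What these members do between genotypes is therefore given as a description, with no test.

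The RNA came from mouse brain on postnatal day 0, with 3 libraries in each of 4 groups: vKO cortex, WT cortex, vKO subcortex and WT subcortex. The vKO mice carry Reck flex2/Δex1 with Tie2Cre, on a background labelled mixed. Tie2-Cre is active in endothelial and in blood lineages, and the labels tie the Δex1 allele to no cell type, so other cells than vessels may differ in Reck as well. The WT mice are labelled wild type on the same mixed background, with no statement on Cre or on the floxed allele. No group is labelled as treated with a hormone and the labels give no hormone level, so the response to glucocorticoid was not measured in these samples. Whether a replicate number stands for 1 animal is not given in the labels. Each deposited table holds 1 FPKM (a fragment count scaled by transcript length and by library) per gene and group, computed by the authors over the replicates. No SD and no depth can therefore be given, and no difference below can be set against the spread between replicates. Log2 ratios are log2((vKO FPKM + 1)/(WT FPKM + 1)), and the words rose, fell and called are kept for genes with a q-value under 0.05 in the authors' deposited table.

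Several facts of the whole series touch these genes. The tissue labels matched their neuronal markers: summed FPKM of 8 cortical neuron markers was 395 in vKO and 362 in WT cortex, against 23.8 in vKO and 22.8 in WT subcortex, while 9 subcortical neuron markers gave 30.6 and 38.5 in cortex, against 163 and 176 in subcortex. Reck itself stood at 3.23 FPKM in vKO and 2.91 in WT cortex, and at 3.49 in vKO and 2.37 in WT subcortex. Whole tissue mixes cells with and without Cre activity, so these values do not check the deletion. Xist, the RNA of the inactive X chromosome, had 18.6 FPKM in vKO and 0.0417 in WT cortex, and 10.2 and 0.0369 in vKO and WT subcortex, so markers of sex move with genotype in both tissues. Eif2s3y, a Y-linked gene, had 15.8 FPKM in vKO and 30.4 in WT cortex, and 13.3 and 27.6 in vKO and WT subcortex, so Y-linked RNA was present in every group. Ratios in cortex also moved with transcript length: the median log2 ratio was 0.39 in the shortest and -0.43 in the longest of 20 length bins, against -0.04 and 0.00 in subcortex.

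The promoter windows of the members are shown first, because the receptor acts through DNA elements and because Txnip, the member with the highest cortex ratio, has a window with a repeat that no other window holds. RefSeq windows of GRCm38.p6, the assembly behind mm10, run from 250 bases before to 50 after each annotated start. They were found for 8 members, 19 windows in all, with several windows for genes with several starts. Windows of Txnip, Fam107a and Sgk1, the 3 members whose windows hold the core of the receptor element, are printed 5′ to 3′ on the gene's strand. Capitals mark that core (ACANNNTGT), the E-box CACGTG and the paired CACGAG of Txnip. The Txnip window lies at chr3:96557707-96558006 on the plus strand, the Fam107a window at chr14:8309730-8310029 on the minus strand and the Sgk1 window at chr10:21993640-21993939 on the plus strand.
Txnip: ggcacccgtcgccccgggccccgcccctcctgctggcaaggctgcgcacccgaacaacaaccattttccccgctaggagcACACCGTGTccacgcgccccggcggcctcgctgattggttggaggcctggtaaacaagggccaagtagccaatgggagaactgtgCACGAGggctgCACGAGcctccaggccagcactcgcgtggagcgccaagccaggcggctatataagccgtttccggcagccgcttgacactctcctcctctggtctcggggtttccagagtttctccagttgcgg
Fam107a: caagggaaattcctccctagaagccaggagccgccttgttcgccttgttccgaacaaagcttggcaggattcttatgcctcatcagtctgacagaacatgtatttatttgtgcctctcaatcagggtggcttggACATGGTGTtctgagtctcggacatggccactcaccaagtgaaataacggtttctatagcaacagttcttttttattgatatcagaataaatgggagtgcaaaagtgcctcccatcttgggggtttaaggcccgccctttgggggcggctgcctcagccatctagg
Sgk1: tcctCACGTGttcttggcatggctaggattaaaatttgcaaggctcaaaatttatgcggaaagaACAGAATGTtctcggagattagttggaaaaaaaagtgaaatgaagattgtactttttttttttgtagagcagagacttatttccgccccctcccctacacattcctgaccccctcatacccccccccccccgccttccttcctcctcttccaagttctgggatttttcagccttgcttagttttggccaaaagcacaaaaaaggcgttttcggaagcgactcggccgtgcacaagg

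In the Txnip window the core of the receptor element reads ACACCGTGT and begins at -170 relative to the start. The Fam107a window carries ACATGGTGT at -116 relative to its start, and a second Fam107a window that begins 2 bases away holds the same letters. The printed Sgk1 window carries ACAGAATGT at -186, and another Sgk1 window holds ACAGTTTGT at -127 from its own start. In all, 5 of the 19 windows, from 3 members, held the core, which 6.85% of 32851 windows of the genome hold. The E-box CACGTG stood in 1 window each of Fkbp5, Sgk1 and Per1, against 7.15% of all windows. The cAMP element TGACGTCA was in 0 of the 19 windows, against 1.79% of all, and the TATA letters TATAAA were in 2 windows, both of Sgk1, against 13.6% of all. Letters were searched on both strands, and no match overlapped a match of another motif. The Txnip window also holds CACGAG in a pair 5 bases apart, beginning at -85, and 1 of the 32851 windows had such a pair. It was searched for after the Txnip window had been read. In studies of human and mouse cells this arrangement is known as the carbohydrate response element of Txnip, bound by MondoA and its partner Mlx. A match is a run of letters and not a measured binding site, and receptor sites are also known far outside such windows.

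**Figure D1:**
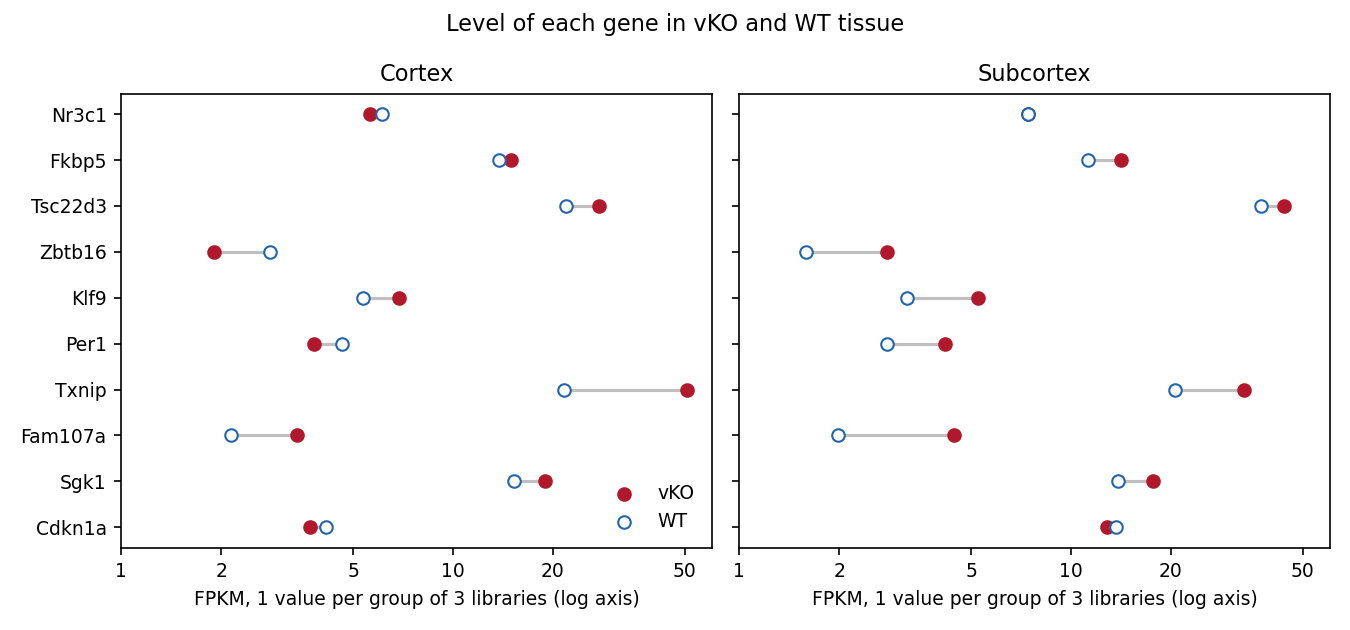
FPKM of each of the 10 members in 4 groups (vKO cortex, WT cortex, vKO subcortex, WT subcortex), on a log axis, 1 authors' group value per point and no error bars because no replicate values were used. Txnip stands highest in vKO cortex at 50.7 FPKM, and Cdkn1a stands near 13 FPKM in both subcortex groups and near 4 in both cortex groups.

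The receptor gene Nr3c1 (chromosome 18, 39410545 to 39519421, minus strand, 9 exons in its main transcript) encodes the protein on which the response depends. It had 5.60 FPKM in vKO and 6.11 in WT cortex, and 7.41 in vKO and 7.43 in WT subcortex. Of the 10 members its levels differed least between genotypes in subcortex, with a ratio of -0.00 and, by the authors' deposited table, p = 0.979. In cortex the ratio was -0.11, with q = 0.641 by the authors' deposited table. Its transcript is long, 6436 bases, and after the median of its length bin was subtracted the cortex ratio was 0.12, so its sign is not settled by these values.

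Fkbp5 and Tsc22d3 act on the receptor pathway itself. Fkbp5 (chromosome 17, 28399094 to 28517527, minus strand, 14 exons) encodes a co-chaperone that lowers the receptor's affinity for hormone, and closes a short feedback loop. It had 14.9 FPKM in vKO and 13.7 in WT cortex, and 14.2 in vKO and 11.3 in WT subcortex. It was not called in either tissue, with log2 ratios of 0.11 in cortex and 0.31 in subcortex and, in the authors' deposited table, p-values of 0.436 and 0.0505. Tsc22d3 (chromosome X, 140539528 to 140600659, minus strand, 3 exons), also called GILZ, encodes a leucine zipper protein that carries part of the anti-inflammatory action of the hormone. It had 27.5 FPKM in vKO and 21.9 in WT cortex, and 43.9 in vKO and 37.4 in WT subcortex. Its level stood higher in vKO in both tissues, by 1.26-fold in cortex and 1.17-fold in subcortex, and neither was called, with q-values of 0.117 and 0.999 in the authors' deposited table. Because Tsc22d3 is X-linked, the Xist values above stand beside this gene, and their part in its ratio was not tested.

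Zbtb16, Klf9 and Per1 encode transcriptional regulators. Zbtb16 (chromosome 9, 48654297 to 48836222, minus strand, 7 exons) encodes the zinc finger repressor PLZF, which is also known as a regulator of neural progenitors. It fell to 1.90 FPKM in vKO cortex, against 2.81 in WT cortex (-0.39), and rose to 2.78 in vKO subcortex, against 1.59 in WT subcortex (0.55). In vKO the level was thus higher in subcortex than in cortex, and in WT it was the other way round. No other member was called in opposite directions in the tissues, and among the entries called in both tissues 10 were called in opposite directions, 3 of them lower in cortex and higher in subcortex, and 35 in the same direction. The difference between the tissues itself was not tested, since the tables hold no replicate values.

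Klf9 (chromosome 19, 23141226 to 23168134, plus strand, 2 exons) encodes a Krüppel-like factor that thyroid hormone and glucocorticoids both induce in the developing brain. Its levels were 6.89 FPKM in vKO and 5.35 in WT cortex, and 5.25 in vKO and 3.20 in WT subcortex. The subcortex ratio was 0.58, against 0.55 for Zbtb16, which was called there. On FPKM without 1 added the order was reversed, with 1.64-fold for Klf9 and 1.75-fold for Zbtb16. Klf9 was not called, with p = 0.00075 and q = 0.0873 by the authors' deposited table. In cortex the ratio was 0.31, and p = 0.0413 and q = 0.137 by the authors' deposited table left it uncalled there too. Per1 (chromosome 11, 69095217 to 69109960, plus strand, 23 exons) encodes a repressor of the circadian clock that glucocorticoids induce directly. It had 3.80 FPKM in vKO and 4.63 in WT cortex, and 4.17 in vKO and 2.79 in WT subcortex. Like Zbtb16 it stood lower in vKO cortex and higher in vKO subcortex, with ratios of -0.23 and 0.45, but neither was called, with q-values of 0.269 and 0.232 in the authors' deposited table.

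Txnip and Sgk1 encode regulators of metabolism and transport. Txnip (chromosome 3, 96557957 to 96561883, plus strand, 8 exons) encodes thioredoxin-interacting protein, an alpha-arrestin that binds thioredoxin and lowers glucose uptake, and whose gene also answers to glucose through MondoA. It rose to 50.7 FPKM in vKO cortex, against 21.5 in WT cortex (1.20), and to 33.3 FPKM in vKO subcortex, against 20.6 in WT subcortex (0.67). The WT levels of the tissues lay close to each other, and the vKO levels apart. In FPKM the folds were 2.35 in cortex and 1.61 in subcortex, and 0.758% and 0.852% of tested entries had a larger ratio. Txnip was seen changed before the group was assembled, so nothing is read from these ranks. Sgk1 (chromosome 10, 21882184 to 21999903, plus strand, 14 exons) encodes a kinase that regulates ion channels and transporters. It had 19.0 FPKM in vKO and 15.2 in WT cortex, and 17.6 in vKO and 13.9 in WT subcortex. The ratios of 0.30 and 0.32 were nearly alike and neither was called, with p-values of 0.0476 and 0.0478 and q-values of 0.151 and 0.777 in the authors' deposited table.

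Fam107a and Cdkn1a act on the cytoskeleton and on the cell cycle. Fam107a (chromosome 14, 8296274 to 8318023, minus strand, 5 exons), known as DRR1, encodes an actin-binding protein that stress and glucocorticoids induce in the brain and that outer radial glia of the human cortex express strongly. It rose to 3.39 FPKM in vKO cortex, against 2.14 in WT cortex (0.49), and to 4.44 FPKM in vKO subcortex, against 1.98 in WT subcortex (0.87). Both WT levels lay near 2 FPKM, and the subcortex fold of 2.24 was the highest of the members there. Cdkn1a (chromosome 17, 29090976 to 29100727, plus strand, 3 exons) encodes p21, an inhibitor of cyclin-dependent kinases that p53 also induces. It had 3.70 FPKM in vKO and 4.15 in WT cortex, and 12.8 in vKO and 13.7 in WT subcortex. Beside Nr3c1 it was the only member with a ratio below 0 in subcortex, at -0.09, and neither tissue's difference was called, with q-values of 0.653 and 0.999 in the authors' deposited table.

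**Figure D2:**
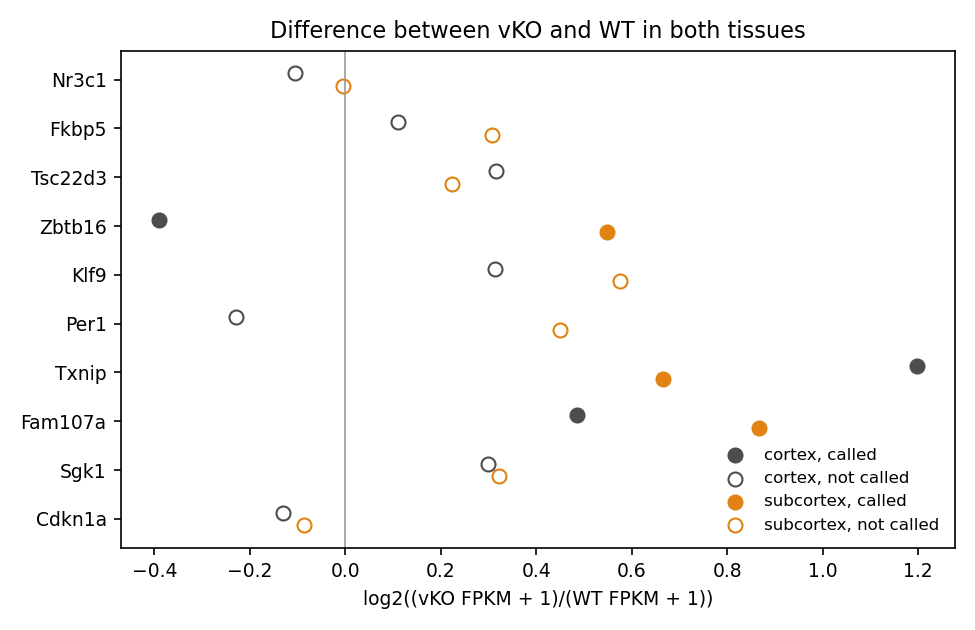
Log2((vKO FPKM + 1)/(WT FPKM + 1)) of the 10 members in cortex and in subcortex, with filled points where the authors' q-value was under 0.05. Txnip reaches 1.20 in cortex, Fam107a reaches 0.87 in subcortex, and Zbtb16 lies at -0.39 in cortex and 0.55 in subcortex.

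Counted over the group, 3 of 10 members were called in cortex, 2 higher and 1 lower, where 19.5% of 13594 tested entries were called, 8.15% higher and 11.3% lower. In subcortex 3 of 10 were called, 3 higher and 0 lower, where 0.714% of 13735 tested entries were called, 0.451% higher and 0.262% lower. These are the same contrasts and the same genes by which the group was assembled, so nothing is read from the counts. Among the other 7 members 0 were called in cortex and 0 in subcortex by the authors' test, run with Cuffdiff per the submitters' processing notes. At an unadjusted p-value under 0.05 in the authors' deposited table there were 3 of these 7 in cortex (Tsc22d3, Klf9 and Sgk1) and 3 in subcortex (Klf9, Per1 and Sgk1), against 32.1% of all tested entries in cortex and 6.31% in subcortex. The same unadjusted p-value weighs differently in the 2 tissues. The largest p-value among called entries of the authors' deposited table was 0.0097 in cortex and 0.00035 in subcortex, so the Klf9 and Per1 p-values of 0.00075 and 0.00345 in subcortex lie under the largest called p-value of cortex.

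The median ratio of the 10 members was 0.20 in cortex and 0.39 in subcortex, against 0.00 and -0.00 over all tested entries. Without Txnip, Fam107a and Zbtb16 the medians were 0.11 and 0.31, with 4 of 7 and 5 of 7 members above 0. Of all tested entries 50.4% in cortex and 49.8% in subcortex were above 0. Members with a ratio above 0 numbered 6 of 10 in cortex and 8 of 10 in subcortex. The 4 cortex members below 0 were Zbtb16, Per1, Cdkn1a and Nr3c1.

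**Figure D3:**
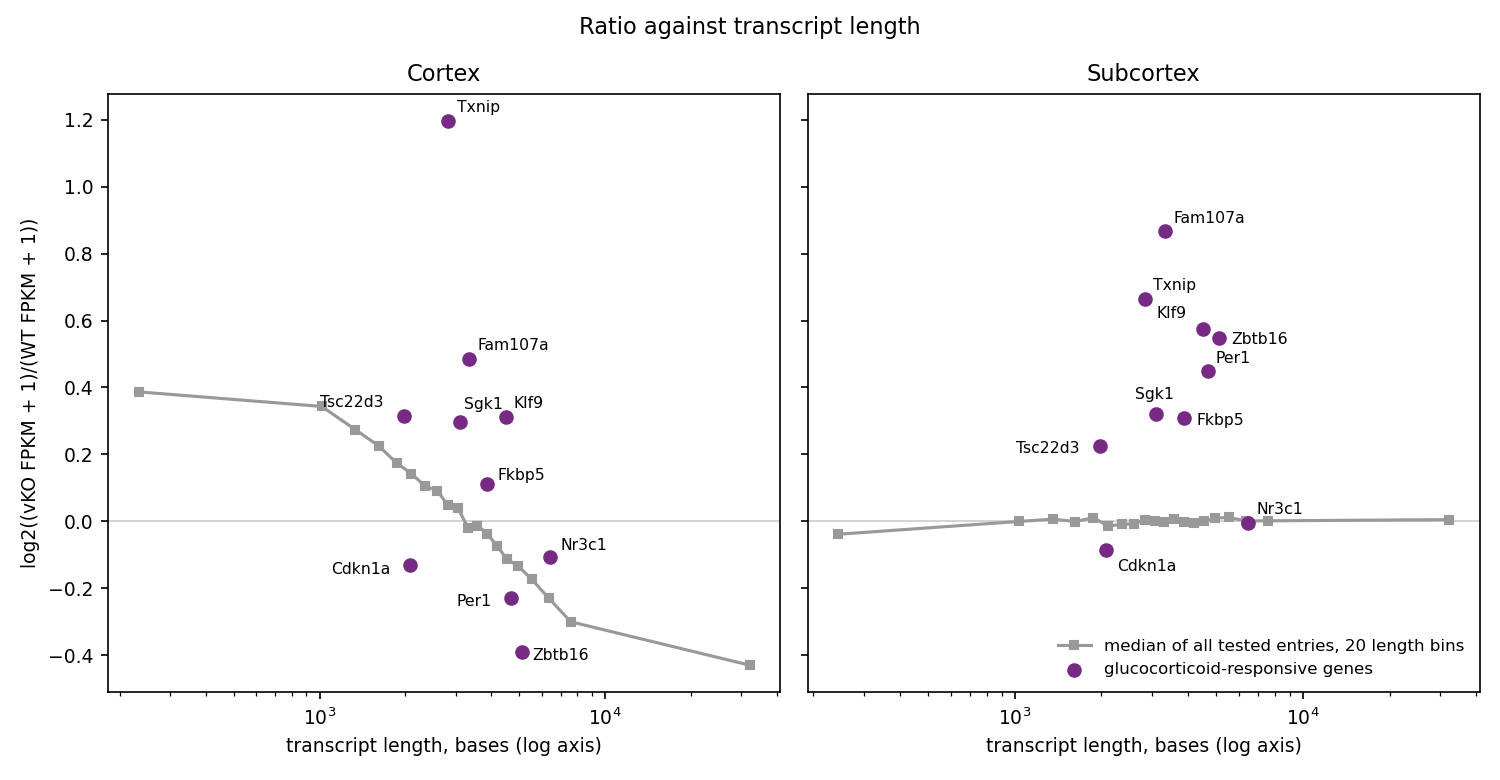
Log2((vKO FPKM + 1)/(WT FPKM + 1)) of the members against transcript length in bases on a log axis, with the median of all tested entries in 20 length bins as a grey line. In cortex the line falls with length and Txnip lies 1.15 above it, while in subcortex the line is flat.

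Transcript length bears on the cortex values of several members. The members' main transcripts run from 1974 bases (Tsc22d3) to 6436 (Nr3c1). With the median of the length bin subtracted, the cortex ratio was 1.15 for Txnip, 0.51 for Fam107a and 0.43 for Klf9. Tsc22d3 came to 0.14 and Cdkn1a, a short transcript, to -0.27. Zbtb16, at 5114 bases, came to -0.26 and Per1, at 4671 bases, to -0.12. The members' median was then 0.14 in cortex and 0.39 in subcortex. In subcortex no member moved by more than 0.02.

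**Figure D4:**
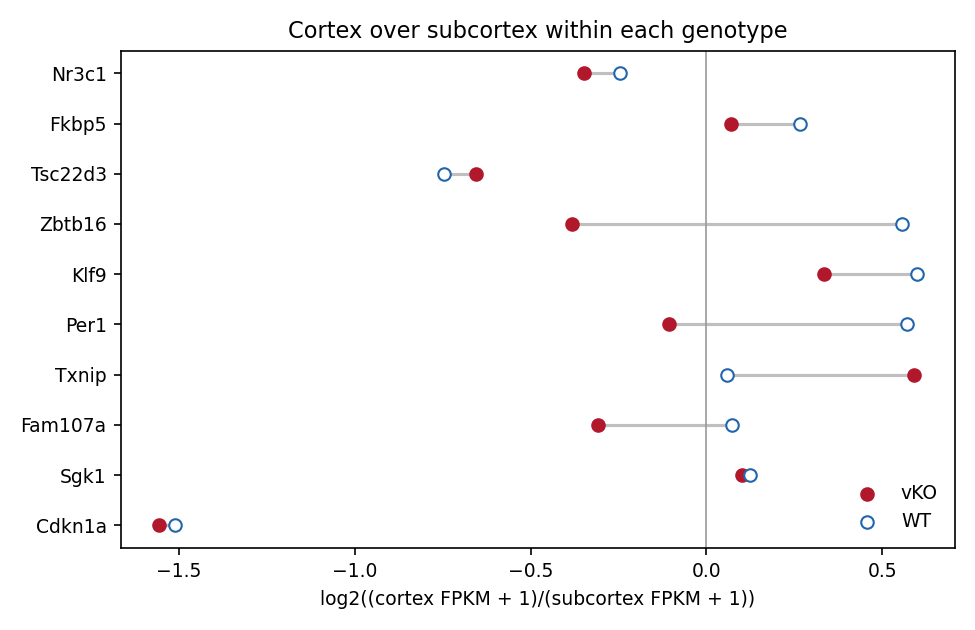
Log2((cortex FPKM + 1)/(subcortex FPKM + 1)) of each member in vKO and in WT, on tables that may have been normalized separately. Cdkn1a lies near -1.5 in both genotypes, and Zbtb16 lies at -0.38 in vKO and 0.56 in WT.

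The members also differ in where in the brain they stand. The tables may have been normalized separately. Cortex over subcortex ratios are therefore set beside the median of all entries tested in both, -0.02 in vKO and -0.05 in WT. Cdkn1a was the most regional member, at 3.47-fold more FPKM in subcortex than in cortex in vKO and 3.30-fold in WT, and Tsc22d3 followed with cortex over subcortex ratios of -0.65 in vKO and -0.75 in WT. Klf9 stood higher in cortex in both genotypes, at 0.34 in vKO and 0.60 in WT. The ratio of Per1 was -0.11 in vKO and 0.57 in WT, and that of Zbtb16 was -0.38 in vKO and 0.56 in WT. Txnip was at 0.59 in vKO and 0.06 in WT, and Fam107a at -0.31 and 0.07. Over the members the median was -0.21 in vKO and 0.10 in WT, and 4 of 10 members in vKO and 7 of 10 in WT stood higher in cortex.

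The order of the 4 levels repeated among members. Fkbp5, Txnip and Sgk1 ran, low to high, from WT subcortex over WT cortex and vKO subcortex to vKO cortex. Zbtb16 and Per1 shared the order WT subcortex, vKO cortex, vKO subcortex, WT cortex. Cdkn1a and Nr3c1 shared the order vKO cortex, WT cortex, vKO subcortex, WT subcortex. Tsc22d3 was lowest in WT cortex and highest in vKO subcortex, Fam107a lowest in WT subcortex and highest in vKO subcortex, and Klf9 lowest in WT subcortex and highest in vKO cortex. The highest level was between 1.33 times (Fkbp5) and 3.70 times (Cdkn1a) the lowest. Without replicate values, which neighbours in these orders differ beyond their spread cannot be given.

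The genotype ratio was larger in subcortex than in cortex for 8 of the 10 members. The difference, subcortex minus cortex on the log2 scale, was 0.94 for Zbtb16, 0.68 for Per1, 0.38 for Fam107a and 0.26 for Klf9. It was 0.20 for Fkbp5, 0.10 for Nr3c1, 0.05 for Cdkn1a and 0.02 for Sgk1. Txnip went the other way with -0.53, and Tsc22d3 stood at -0.09. The members' median difference was 0.15, against -0.00 over all 13167 entries, and none of these differences was tested.

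Genes whose 4 group levels lay nearest to each member were sought among 12433 entries, by the distance between their log2(FPKM + 1) profiles after the mean of the 4 values had been removed. Txnip had 4 entries within a distance of 0.2, and the nearest were Mdk (0.16), Ier2 (0.19) and Cebpd (0.19). Cebpd had 4.17 FPKM in vKO and 1.32 in WT cortex, and 2.42 in vKO and 1.54 in WT subcortex. Fam107a had 6 such entries, led by Dcxr (0.13), Sox17 (0.17) and the joint entry of Eif3j1 and Eif3j2 (0.17). Zbtb16 had 24, led by Col4a2 (0.11), Nanos3 (0.12) and Tor1aip1 (0.14), and Klf9 had 12, led by Dynlt1b (0.09), Lox (0.11) and Cmtm7 (0.12). For Col4a2, a basement membrane collagen, the levels were 16.1 FPKM in vKO and 22.0 in WT cortex, and 22.1 in vKO and 13.4 in WT subcortex. Cdkn1a had 36 near entries (Meis1, Dzip1 and Plcb4 first) and Per1 98 (Irs2, Fbxl20 and Zak first). The remaining members had more: 162 for Tsc22d3 (Slc22a4, Cd63 and Hyi first), 404 for Sgk1 (Slc16a6, Lrp10 and Sssca1 first), 565 for Fkbp5 (Ier5l, Akr1c19 and Fli1 first) and 1133 for Nr3c1 (Pgbd5, Aars and Myo10 first). A profile of 4 values is short, so a small distance is a description only.

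Other genes known to be induced by glucocorticoids were read from a list of 26, of which 24 were tested in each table. In cortex 6 rose and 3 fell, with a median ratio of 0.29, and in subcortex 3 rose and 0 fell, with a median of 0.21. Of all tested entries 19.5% were called in cortex (8.15% higher and 11.3% lower) and 0.714% in subcortex. Each list count below is to be set beside these shares. The medians over all tested entries were 0.00 and -0.00, and 20 of the 24 were above 0 in each tissue. The metallothionein genes led in both tissues, proteins that bind zinc and copper and whose genes also answer to metals and hypoxia. Mt2 rose to 63.4 FPKM in vKO cortex, against 11.8 in WT cortex (2.33), and to 41.3 in vKO subcortex, against 13.2 in WT subcortex (1.58). Mt1 rose to 132 FPKM in vKO cortex, against 30.5 in WT cortex (2.08), and to 128 in vKO subcortex, against 57.5 in WT subcortex (1.14). Both had ratios above that of Txnip in each tissue. Without Mt1 and Mt2 the list's medians were 0.29 and 0.19.

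The remaining calls of that list differed by tissue. In cortex the transcription factor genes Cebpd and Cebpb rose, Cebpd by 1.16 and Cebpb to 3.25 FPKM in vKO, against 1.05 in WT (1.05). The mTOR inhibitor gene Ddit4, which hypoxia also induces, rose by 0.94 and the sulfotransferase gene Sult1a1 by 0.60, to 7.07 FPKM in vKO against 4.34 in WT. Angptl4, an inhibitor of lipoprotein lipase, fell to 3.04 FPKM in vKO cortex, against 4.99 in WT (-0.57). Hif3a, which encodes a hypoxia-inducible factor subunit, fell to 0.593 against 1.30 (-0.53), and the clock gene Per2 to 2.35 against 3.28 (-0.35). With the length trend removed the ratio was 0.32 for Sult1a1, -0.30 for Hif3a and -0.18 for Per2. The third call in subcortex was Pdk4, a kinase that inactivates pyruvate dehydrogenase, at 1.36 FPKM in vKO and 0.544 in WT (0.61). Whether any of these differed between the tissues was not tested.

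**Figure D5:**
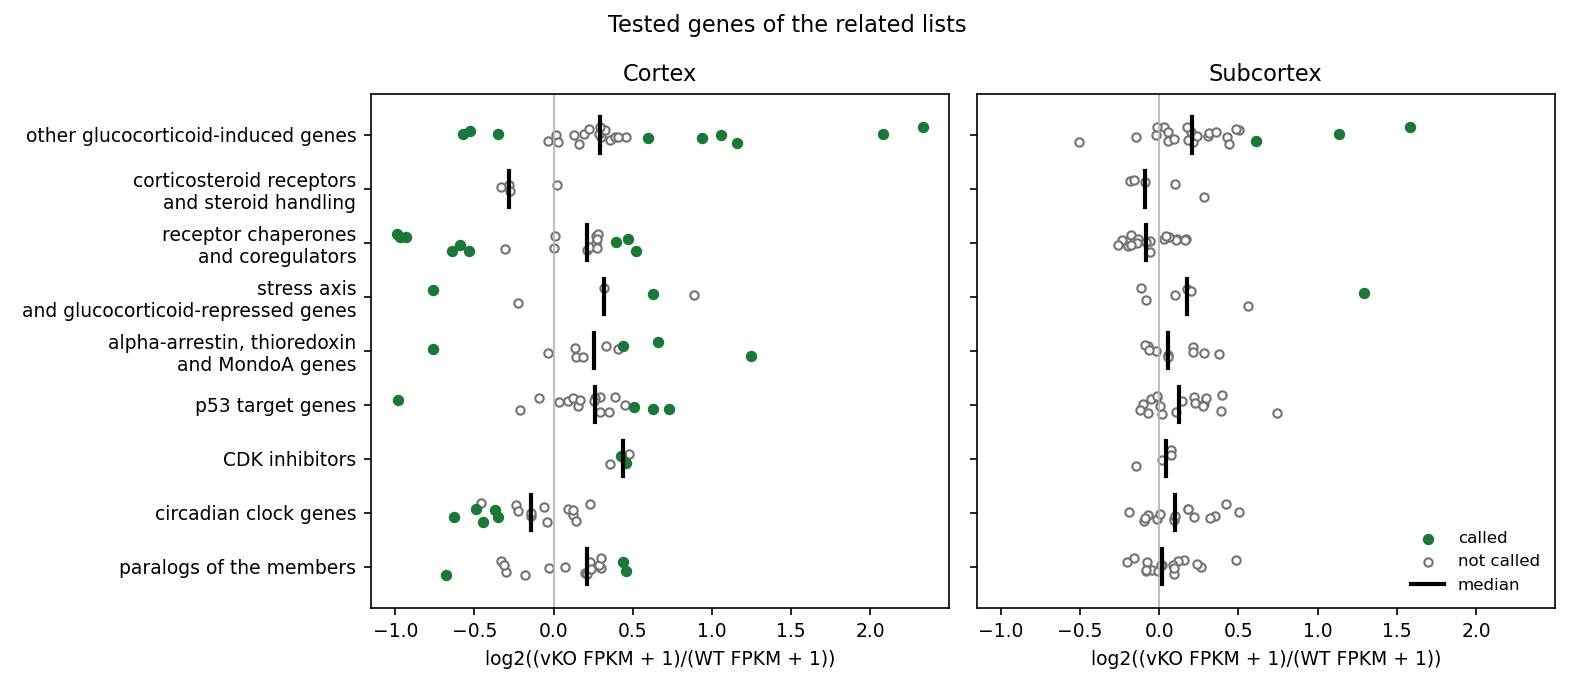
Log2((vKO FPKM + 1)/(WT FPKM + 1)) of the tested genes of 9 related lists in cortex and in subcortex, with filled points for genes called by the authors' q-value, open points for the others and black bars for medians. Mt2 at 2.33 and Mt1 at 2.08 stand at the right end in cortex, and the lists of chaperones and clock genes hold called genes below 0 in cortex and no called gene in subcortex.

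Other receptors and enzymes of the steroid pathway gave no call. Of 8 such genes 4 were tested in cortex and 5 in subcortex, with medians of -0.28 and -0.09. Nr3c2, the mineralocorticoid receptor that binds the same hormone with higher affinity, had 4.68 FPKM in vKO and 6.14 in WT cortex, with q = 0.0885 by the authors' deposited table. Cyp7b1, an enzyme of oxysterol and steroid hydroxylation, had 2.90 FPKM in vKO and 2.85 in WT cortex, and 4.25 in vKO and 3.31 in WT subcortex. The progesterone receptor gene Pgr had 2.65 FPKM in vKO and 3.09 in WT subcortex. Serpina6, which encodes the corticosteroid-binding globulin of plasma, was listed at 0 in all 4 groups.

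Receptor chaperones and coregulators, 19 genes and all tested, moved both ways in cortex, where 3 rose and 6 fell with a median of 0.21. In subcortex 0 were called and the median was -0.08. The histone acetyltransferase genes Ep300 and Crebbp fell to 7.08 and 14.4 FPKM in vKO cortex, against 14.8 and 28.4 in WT cortex (-0.97 and -0.93), and the coactivator Ncoa3 fell by 0.64. These transcripts are long, 7531 to 10820 bases, and with the length trend removed the ratios of Ep300, Crebbp and Ncoa3 were -0.54, -0.50 and -0.34. Of the chaperones, Hsp90ab1 rose to 595 FPKM in vKO cortex, against 429 in WT (0.47), and the co-chaperone gene Bag1 rose to 88.2, against 61.3 (0.52, and 0.24 with the length trend removed). Hsp90ab1 is known to have processed copies in the genome, and how the authors' counting shared reads among copies is stated in none of the sources used here. In subcortex it had 505 FPKM in vKO and 449 in WT, and the chaperone Hspa8 had 983 in vKO and 1078 in WT.

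Of 13 genes of the stress axis and genes that glucocorticoids repress, 5 were tested in cortex, where 1 rose and 1 fell (median 0.32), and 7 in subcortex, where 1 rose and 0 fell (median 0.18). Avp, the vasopressin gene of hypothalamic neurons, rose to 26.3 FPKM in vKO subcortex, against 10.1 in WT (1.29). In cortex the matrix protease gene Mmp9 fell to 0.984 FPKM in vKO, against 2.36 in WT (-0.76). Pomc, the precursor of corticotropin, rose in cortex to 1.77 FPKM in vKO, against 0.797 in WT (0.63, and 0.28 with the length trend removed).

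Some relatives and partners of Txnip were called in cortex. Of 11 alpha-arrestin, thioredoxin and MondoA genes 10 were tested in each table, 3 rising and 1 falling in cortex (median 0.26) and 0 called in subcortex (median 0.05). Arrdc3, an alpha-arrestin gene like Txnip, rose to 53.3 FPKM in vKO cortex, against 21.9 in WT cortex (1.25), and Arrdc4, an arrestin gene that MondoA also induces, to 25.8 against 15.97 (0.66). In subcortex Arrdc3 had 26.2 FPKM in vKO and 20.003 in WT, and Arrdc4 18.9 and 15.4, both uncalled. Mlxip, the gene of MondoA itself, fell to 4.22 FPKM in vKO cortex, against 7.85 in WT (-0.76, and -0.46 with the length trend removed). The mitochondrial thioredoxin gene Txn2 rose by 0.44 in cortex. It had 37.3 FPKM in vKO and 39.0 in WT subcortex, where Txn1 had 100.01 and 107.

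Of 20 p53 target genes, the group to which Cdkn1a belongs, 18 were tested in each table. In cortex 3 rose and 1 fell (median 0.26), a share near the 19.5% of all tested entries called there, and 0 were called in subcortex (median 0.12). Btg2, an antiproliferative gene, rose to 8.21 FPKM in vKO cortex, against 4.56 in WT (0.73), and Ccng1, of cyclin G1, to 23.2, against 14.7 (0.63). The apoptosis effector gene Bax rose by 0.51 in cortex (0.16 with the length trend removed) and Zmat3 fell by 0.98 (-0.68 with it removed). In subcortex Bax had 59.4 FPKM in vKO and 60.0 in WT, and the kinase gene Plk2 41.5 and 41.0. Of 6 other genes of cyclin-dependent kinase inhibitors 4 were tested, and 2 rose in cortex (median 0.44) and 0 were called in subcortex (median 0.05). These were Cdkn1b, at 48.6 FPKM in vKO and 35.1 in WT cortex (0.46), and Cdkn2d, at 26.0 and 19.1 (0.42, and 0.15 with the length trend removed). In subcortex Cdkn1c had 36.7 FPKM in vKO and 40.7 in WT, and Cdkn2d 37.3 and 35.3.

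Clock genes, the circle to which Per1 belongs, gave 0 rises and 5 falls of 17 tested in cortex (median -0.14) and 0 calls of 16 in subcortex (median 0.10). Of all tested entries in cortex 11.3% were called lower. With the length trend removed the cortex median was -0.09. Rorb, a nuclear receptor gene that also marks a layer of cortical neurons, fell to 4.70 FPKM in vKO cortex, against 7.82 in WT (-0.63). Npas2 and Hlf fell to 1.30 and 1.81 FPKM in vKO cortex, against 2.22 and 2.83 in WT cortex, and Bhlhe41 fell by 0.37. With the length trend removed the ratios were -0.20 for Rorb, -0.41 for Npas2, -0.27 for Hlf and -0.14 for Bhlhe41. Per2, which is also among the glucocorticoid-induced genes above, was the fifth. In subcortex Tef had 14.7 FPKM in vKO and 10.1 in WT, with q = 0.123 by the authors' deposited table, and Cry2 had 12.0 and 10.4. Among 19 paralogs of the members 17 were tested, with 2 rises and 1 fall in cortex (median 0.21) and 0 calls in subcortex (median 0.02). Their called share in cortex was near the 19.5% of all tested entries called there. The Krüppel-like factor genes Klf10 and Klf4 rose in cortex to 7.51 and 2.25 FPKM in vKO, against 5.29 and 1.37 in WT, and Zbtb20, a transcript of 26901 bases, fell by 0.68 (-0.25 with the length trend removed). In subcortex Tsc22d1 had 216 FPKM in vKO and 215 in WT, and Fkbp8 had 129 and 115.

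Markers of other cell types moved with genotype beside these genes. Summed FPKM of the erythroid markers was 5484 in vKO and 310 in WT cortex, with 2 of 6 tested called higher, and 636 in vKO and 532 in WT subcortex, with 0 called. Hba-a2 and Hbb-bs are counted both alone and within joint entries of these tables, so that sum is not over separate genes. Microglia and macrophage markers summed to 148 in vKO and 44.5 in WT cortex, with 7 of 9 called higher, and to 83.02 and 70.3 in subcortex, with 1 of 9. Endothelial markers summed to 81.9 in vKO and 104 in WT cortex (1 of 8 higher and 3 lower) and to 101 and 87.7 in subcortex (2 of 8 higher). Their median ratio was -0.10 in cortex, with 3 of 8 above 0, and 0.35 in subcortex, with 7 of 8 above 0. Radial glia and astrocyte markers summed to 1183 in vKO and 922 in WT cortex (2 of 10 higher and 2 lower), and to 1784 and 1960 in subcortex, with 0 called. Fabp7 alone gave most of these sums, and the list's median ratio in subcortex was 0.15, with 7 of 10 above 0. Inhibitory neuron markers summed to 89.3 in vKO and 124 in WT cortex (4 of 6 lower) and to 101 and 96.1 in subcortex, and oligodendrocyte lineage markers to 65.2 and 64.7 in cortex and 126 and 114 in subcortex. Of these markers, Hbb-bh1 was listed at 0 in WT cortex and Hoxb2 in both cortex groups. In bulk tissue fewer cells of a type and less RNA per cell cannot be told apart, and the part of these markers, of the markers of sex and of transcript length in the members' ratios was not tested.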

How the data were processed

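RNA of P0 mouse cortex and subcortex (3 libraries in each of 4 groups) was read from 2 tables of the authors' own comparisons. The submitters' processing notes name Cuffdiff, Cufflinks 2.2.1, HISAT2 2.0.1 and mm10, without an account of the steps or the annotation. The FPKM values were deposited by the authors as 1 value per gene and group, per the file headers. The p-values and q-values are those of the authors' deposited tables, per the file headers, and a Benjamini-Hochberg adjustment within each table gave them back to within 5.2e-07. The column code M was taken to be vKO and W to be WT, the only genotypes in the labels. No value used here checks this reading, on which every direction rests. Whether the FPKM values of each table were normalized on their own is not known.

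Here log2 ratios were computed with 1 added to both FPKM values, which understates changes of low genes, and no test was run, because no replicate value was used. Of these steps only the subtraction of length-bin medians was tested on simulated data. Depth is unknown. Lengths and positions are from GENCODE M21 (longest protein-coding transcript), in 20 length bins, and promoter windows from RefSeq GRCm38.p6. Named genes are all members, up to 4 called genes a list with the lowest q (otherwise the 2 with the highest FPKM), and the 3 nearest profiles among entries tested in both tables, with FPKM of at least 1 in some group and without predicted models. Sult1a1, Cebpb, Angptl4, Hif3a, Per2, Hsp90ab1 and Bag1 in cortex, Arrdc3 and Arrdc4 in subcortex and Col4a2's levels were added after their values were seen. A gene that the rule names is not reported here. The members and lists were chosen with earlier results of these data known, and some genes stand in more than 1 list. Python 3.11.15, pandas 2.3.3 and matplotlib 3.10.9 were used.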

Additional observations from a re-analysis of the deposited data

Results flagged for a closer look

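Zbtb16 had log2 ratios of vKO over WT of 0.55 in subcortex and -0.39 in cortex, a difference of 0.94 (subcortex minus cortex), and was called in the authors' deposited table in opposite directions. The group values move in opposite ways in the tissues, and the difference was not tested. Among entries tested in both tissues, 1.13% had a larger difference. Zbtb16 was seen changed before the group was assembled, so nothing is read from this rank. With the length trend removed its ratios were -0.26 in cortex and 0.54 in subcortex.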

How the results depend on the processing

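No paired analysis was possible because the tables hold 1 value a group, and for the same reason leaving out single libraries was not run. With a q-value under 0.01 in the authors' deposited tables, 1 member was called in cortex (Txnip) and 0 in subcortex, where the lowest q-value of any entry in the authors' deposited table is 0.0104. Without Txnip, Fam107a and Zbtb16, a choice made after seeing the data, 0 members were called in cortex and 0 in subcortex. With a fold of at least 1.5 on FPKM, 2 were called in cortex and 3 in subcortex. The medians of the members stayed above 0 under every alternative run, and the direction of the region medians held as well. Of 20 member ratios, 19 kept their sign, the exception being Nr3c1 in cortex with the length trend removed (0.12). Of all 73 single-gene ratios 70 kept their sign, and the 3 that changed it were not called. These counts were largely fixed beforehand. Adding a smaller value than 1 to both FPKM values, or none, cannot change the sign of a gene's ratio. The median of all tested entries, also subtracted, was only 0.0037 in cortex and -0.00074 in subcortex. Nearly every sign could therefore change only with the length trend removed, and nothing more is read from the counts. The number and depth of the reads behind each value are unknown, so no interval can be given.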

Other observations

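Immediate early genes, transcription factor genes that stimulated cells induce within minutes, were read because Ier2 is among the profiles nearest to Txnip. Of 9 genes 7 were tested in cortex, where 3 rose and 1 fell in the authors' deposited table (median 0.42), and 5 in subcortex, where 0 were called (median 0.20). Ier2 rose to 6.70 FPKM in vKO cortex, against 3.01 in WT cortex (0.94), and had 4.53 FPKM in vKO and 2.69 in WT subcortex. Junb rose to 6.69 FPKM in vKO cortex, against 3.77 in WT cortex (0.69), and had 2.74 FPKM in vKO and 1.95 in WT subcortex. Not every called gene of this list is printed, and in subcortex 3 of its 5 tested genes had a ratio above 0. Of 8 tested hypoxia markers 3 rose in cortex (median 0.29) and 1 in subcortex (median -0.06), where the glucose transporter gene Slc2a1 rose to 21.9 FPKM in vKO, against 12.8 in WT. In cortex Slc2a1 was not called and stood lower in vKO, at 13.6 FPKM against 16.9 in WT (-0.29). Slc2a1 does not stand for its list in subcortex, where 3 of the 8 had a ratio above 0.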
